A study of Mus musculus with 9 samples.

Results

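Expression of 10 genes of the integrated stress response (ISR) and the unfolded protein response (UPR) was described in mouse embryonic stem cells (mESC), namely *Atf4*, *Ddit3*, *Xbp1*, *Asns*, *Psat1*, *Phgdh*, *Trib3*, *Chac1*, *Sesn2* and *Hspa5*. They were taken by symbol as 10 of 29069 genes in the deposited table, and all 10 were among the 18156 genes with a mean above 5 that were tested. Total RNA was sequenced from the D3 line, an established mESC line from ATCC adapted to growth without feeder cells, with 3 replicates in each of 3 media. Ground-state medium (GS) was serum-free NDiff N2B27 to which LIF, a cytokine of self-renewal (20 ng/mL), and inhibitors of MEK (PD0325901, 1 μM) and of GSK-3 (CHIR99021, 3 μM) had been added. Differentiation medium (DM) had none of these and was DMEM with 10% fetal bovine serum. Its glucose was at 1 g/L, its glutamine at 4 mmol/L and its 2-mercaptoethanol at 0.1 mmol/L. NO medium was DM with DETA/NO, from which nitric oxide is set free, at 250 μM. All cells were used at passages 5 to 8, and each medium was applied for 24 h. GS and DM differ in basal medium, serum, inhibitors and LIF together, so the parts of this change cannot be told apart, whereas NO and DM differ in DETA/NO alone.

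In the ISR, the kinases PERK, GCN2, PKR and HRI phosphorylate the initiation factor eIF2α, which lowers general translation and raises that of the transcription factor ATF4. ATF4 induces genes for amino acid synthesis, amino acid uptake and tRNA charging, as well as the factor CHOP, the product of *Ddit3*. In the UPR, unfolded protein in the endoplasmic reticulum (ER) activates PERK, IRE1 and ATF6, IRE1 splices the mRNA of XBP1, and the factors made by this route raise ER chaperones such as BiP, the product of *Hspa5*. A read count per gene measures neither the translation of *Atf4* nor the splicing of *Xbp1*. In bulk RNA, fewer cells that express a gene and less RNA per cell cannot be told apart.

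Sequence elements of these pathways were looked for in RefSeq promoters (GRCm38.p6, 250 bases before to 50 after the start), which were found for all 10 genes. The C/EBP-ATF response element (CARE), to which ATF4 binds, was searched on both strands as TGATGNAA, and the ER stress element (ERSE) as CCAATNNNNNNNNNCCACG. CARE matched in *Asns*, *Trib3* and *Chac1* (3 of 10) and in 3.97% of 32817 promoters, and ERSE matched in *Hspa5* alone of the 10 and in 0.12% of promoters. A further element of XBP1 and ATF6, TGACGTGG, matched in 0 of the 10 and in 0.68% of promoters. The windows with a match are shown because they hold the elements through which ATF4 and the ER route are known to act, with the match in capitals, on the strand of the gene.
Asns: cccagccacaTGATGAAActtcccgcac
Trib3: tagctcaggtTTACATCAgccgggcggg
Chac1: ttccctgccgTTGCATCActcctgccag
Hspa5: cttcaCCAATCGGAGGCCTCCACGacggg
The match in *Asns* (window at chr6:7693215-7693242, minus strand) lay 23 to 16 bases before the start and that in *Hspa5* (window at chr2:34772020-34772048, plus strand) 65 to 47 bases before it, both within an exon of some GENCODE transcript. The match in *Chac1* (window at chr2:119351039-119351066, plus strand) lay 193 to 186 bases before the start, and that in *Trib3* (window at chr2:152344029-152344056, minus strand) 14 to 21 bases after it. The matches in *Trib3* and *Chac1* read as CARE on the opposite strand. A match describes letters only, and the binding of a factor was not measured here.

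The deposited values are read counts per gene that the authors normalised with DESeq2 and rounded, and they are named normalised counts. The reads assigned to genes were estimated at 14312996 to 27099750 per sample. NO replicate 2 stood apart, with a score on the first principal component of 131 against 25.9 and 67.1 in NO replicates 1 and 3. It held the lowest value of the 9 samples in 23.9% of all genes tested and the highest in 28.8%. Summed over 7 pluripotency markers, normalised counts were 78299 to 82499 in GS, 75148 to 85753 in DM and 46232 to 77244 in NO. Sums over 5 markers each of fibroblasts, primitive endoderm and trophoblast were at most 492, 538 and 681, and no marker of these lists was at 0 in all replicates of a medium. Primitive endoderm markers summed to 106 to 165 in GS, 94 to 162 in DM and 197 to 538 in NO, and trophoblast markers to 653 to 681, 168 to 232 and 285 to 649. Single markers within a sum moved apart. *Nanog* was at 12184 to 15465 in GS and 7596 to 8190 in DM, whereas *Zfp42* was at 16236 to 18573 and 19569 to 22594. In NO, *Pou5f1* was at 4276 to 9978, below GS (11278 to 12537) and DM (11988 to 15354), whereas *Nanog* was at 7678 to 12693. *Thy1* was at 59 to 60 in GS and 168 to 211 in DM, whereas *Pdgfrb* was at 219 to 378 and 163 to 216. *Cdx2* was at 46 to 75 in GS and 3 to 14 in NO, whereas *Tfap2c* was at 262 to 326 in GS and 144 to 426 in NO. The part of these markers in the results was not tested. RNA of each sample came from a dish of its own, per the methods of the study, and p-values measure the spread between these samples.

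Differences are given as log2 fold changes with standard errors from limma on log2(value + 1), with p-values adjusted by Benjamini-Hochberg over all genes tested. A gene passed the test at an adjusted p under 0.05, and was called changed if it also changed at least 2-fold. With DETA/NO, the enzymes of serine synthesis *Psat1* and *Phgdh* and the glutathione-degrading enzyme *Chac1* fell below DM, *Psat1* also fell below GS, and *Atf4*, *Ddit3*, *Xbp1*, *Trib3* and *Hspa5* did not pass the test in any comparison. Of 21 alternative fits, the fall from DM passed in 19 for *Psat1*, 16 for *Phgdh* and 10 for *Chac1*. In a limma fit of the NO and DM samples alone, *Phgdh* and *Chac1* did not pass (adjusted p = 0.0552 and 0.0892). Between DM and GS, 0 of the 10 genes passed in the main fit of all 9 samples. In a limma fit of the GS and DM samples alone, *Xbp1* and *Asns* passed without reaching 2-fold (adjusted p = 0.0414 and 0.0460). Over the 3 media together, 3 of 10 (*Psat1*, *Phgdh* and *Sesn2*) passed the moderated F test of limma, against 23.3% of all genes tested.

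**Figure D1:**
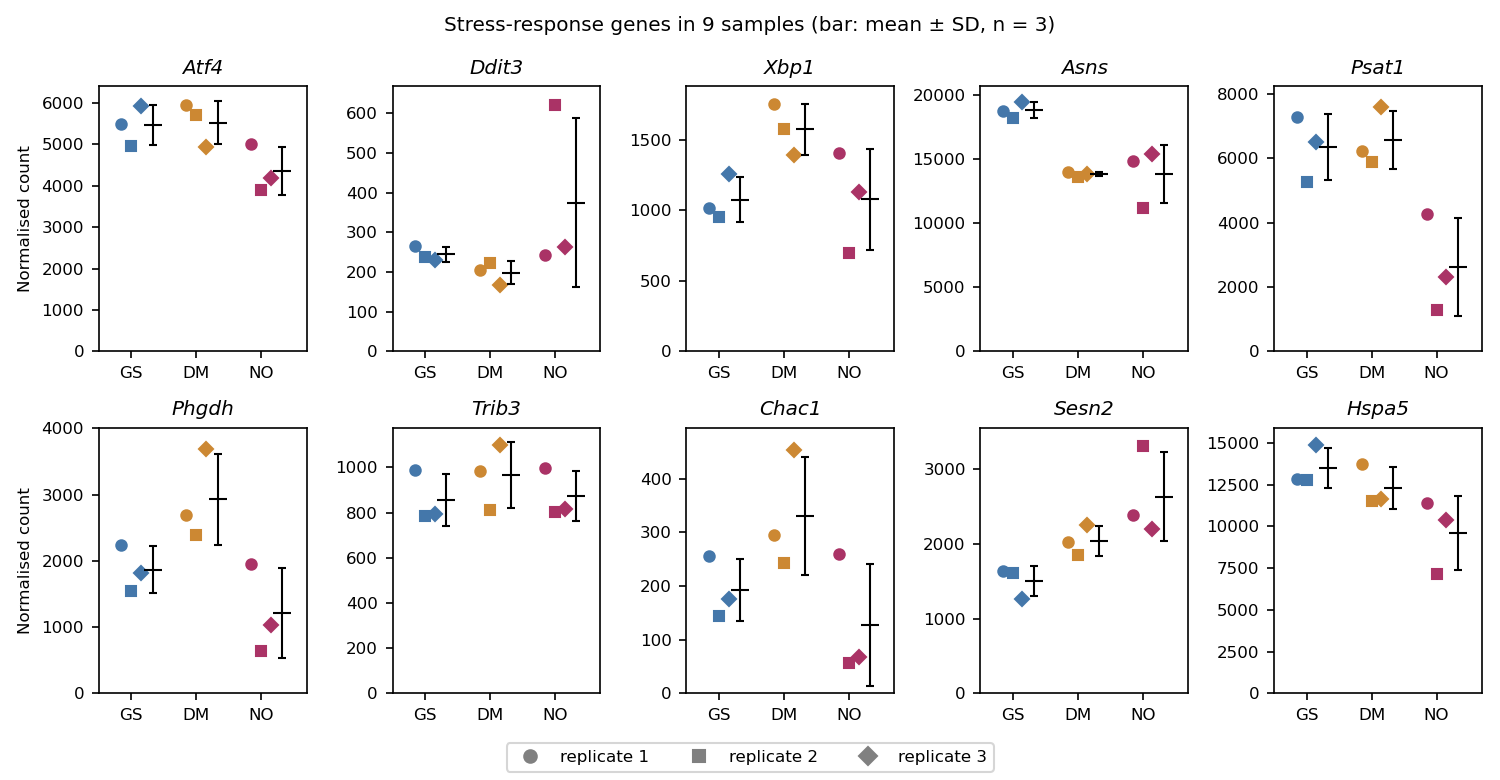
Normalised counts (vertical axes, each from 0) of the 10 genes in the 3 replicates (symbols) of GS, DM and NO, with the mean ± SD (n = 3) beside them. *Psat1* in NO (1287 to 4272) lies below all GS and DM samples, and NO replicate 2 is the lowest of the 9 samples in 7 genes and the highest in 2.

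Among the transcription factors, *Atf4* (ENSMUSG00000042406, chr15:80255184-80257541) had normalised counts of 5490, 4952 and 5915 in GS, 5933, 5694 and 4928 in DM, and 4996, 3882 and 4184 in NO. All 3 media overlapped in part, with NO the lowest on average (4354 ± 576, SD, n = 3). The log2 fold change was -0.35 ± 0.14 against DM and -0.33 ± 0.14 against GS, and neither passed (limma, adjusted p = 0.123 and 0.125). Without NO replicate 1 both passed (adjusted p = 0.0476 and 0.0497).

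*Ddit3* (ENSMUSG00000025408, chr10:127290774-127296288) encodes CHOP, a factor linked to cell death under lasting ER stress. It was at 266, 238 and 230 in GS, 205, 223 and 167 in DM, and 242, 620 and 263 in NO. The value of 620 in NO replicate 2 stood far above the other 8 samples, and without it the log2 fold change against DM was 0.36 in place of 0.79 ± 0.30. Neither value passed (limma, adjusted p = 0.274 and 0.100), although all NO values lay above all DM values, and without NO replicate 1 the gene was called at 1.03 (adjusted p = 0.0288). Its exons overlap those of *Mars* and *Gm4189* on the opposite strand and another model of the same gene, so its counts are uncertain, since use of the strand was not stated.

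*Xbp1* (ENSMUSG00000020484, chr11:5520659-5525893), the factor spliced by IRE1, was at 1014, 955 and 1254 in GS, 1755, 1574 and 1393 in DM, and 1405, 699 and 1127 in NO. All DM values lay above all GS values, with a log2 fold change of 0.55 ± 0.23 that did not pass (limma, adjusted p = 0.190). It passed without NO replicate 2 (adjusted p = 0.0339), which enters through the shared estimate of the spread. The NO samples spread from the lowest value of all to the level of DM, and the difference from DM of -0.60 did not pass (adjusted p = 0.0947), but did without NO replicate 1 (-0.82, adjusted p = 0.0164).

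*Asns* (ENSMUSG00000029752, chr6:7675169-7693254), asparagine synthetase, was the most abundant of the 10 genes. Its normalised counts were 18734, 18199 and 19472 in GS, 13992, 13627 and 13826 in DM, and 14808, 11207 and 15381 in NO. All 6 samples without the inhibitors lay below all GS samples, and the DM replicates differed little among themselves (13815 ± 183, SD, n = 3). The log2 fold change was -0.44 ± 0.15 between DM and GS, which did not pass (limma, adjusted p = 0.110), and -0.46 ± 0.15 between NO and GS, which passed without reaching 2-fold (adjusted p = 0.0493). NO and DM differed by -0.02, with a 95% interval of -0.34 to 0.31. The test against GS was passed narrowly. It was no longer passed without any 1 of the libraries GS 1, GS 2, GS 3, DM 1, DM 2, NO 2 and NO 3 (adjusted p = 0.0603 to 0.135), and with the replicate number as a block (adjusted p = 0.0562). Without NO replicate 2, DM against GS passed (adjusted p = 0.0280) and NO against GS did not (-0.32, adjusted p = 0.131).

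*Psat1* (ENSMUSG00000024640, chr19:15904678-15947337) and *Phgdh* (ENSMUSG00000053398, chr3:98313170-98339990) catalyse consecutive steps of serine synthesis from a glycolytic intermediate. *Psat1* was at 7281, 5256 and 6512 in GS, 6237, 5893 and 7606 in DM, and 4272, 1287 and 2320 in NO. GS and DM overlapped, and all NO values lay below both. It fell 2.80-fold below DM (log2 fold change -1.48 ± 0.33, limma, adjusted p = 0.0153) and 2.69-fold below GS (-1.43 ± 0.33, adjusted p = 0.0114). Without NO replicate 2 the difference from GS passed but was just under 2-fold (-0.999, adjusted p = 0.0166), and that from DM was -1.05 (adjusted p = 0.0214). Without DM replicate 3 the fall from DM no longer passed (-1.38, adjusted p = 0.0507).

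*Phgdh* was at 2241, 1543 and 1813 in GS, 2692, 2397 and 3694 in DM, and 1961, 633 and 1037 in NO. DM lay above both other media in every replicate, while NO and GS overlapped. It fell 2.64-fold from DM to NO (log2 fold change -1.40 ± 0.33, limma, adjusted p = 0.0191). The difference of DM from GS (0.64 ± 0.33) and that of NO from GS (-0.76 ± 0.33) did not pass (adjusted p = 0.311 and 0.125). The fall from DM was lost without DM replicate 1 (adjusted p = 0.0506), DM replicate 3 (adjusted p = 0.0636) or NO replicate 3 (adjusted p = 0.0597), and it passed without NO replicate 2 (-1.01, adjusted p = 0.0412). Without NO replicate 1, NO was also called lower than GS (-1.19, adjusted p = 0.0047).

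Among the effectors, *Chac1* (ENSMUSG00000027313, chr2:119351229-119354381) was at 256, 144 and 176 in GS, 294, 243 and 453 in DM, and 259, 56 and 67 in NO. NO replicates 2 and 3 were the lowest of all samples, whereas NO replicate 1 lay above DM replicate 2, so the media overlapped. It fell 3.19-fold from DM to NO (log2 fold change -1.67 ± 0.48, limma, adjusted p = 0.0402), the widest error of the 10 genes. That call was lost without any 1 of the libraries of GS or DM, or without NO replicate 2 or 3 (adjusted p = 0.0539 to 0.137), and was kept without NO replicate 1 (-2.36, adjusted p = 0.000442), where *Chac1* also fell below GS (-1.59, adjusted p = 0.00293).

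*Sesn2* (ENSMUSG00000028893, chr4:132492032-132510501), which restrains the growth kinase mTORC1 when leucine is scarce, was the only one of the 10 genes that passed the test with higher values in NO. It was at 1633, 1602 and 1267 in GS, 2019, 1849 and 2252 in DM, and 2379, 3307 and 2193 in NO. All DM and NO values lay above all GS values, and NO and DM overlapped. It rose 1.73-fold from GS to NO (log2 fold change 0.79 ± 0.17, limma, adjusted p = 0.00886), short of 2-fold. DM was 0.45 ± 0.17 above GS and NO 0.35 ± 0.17 above DM, neither of which passed (adjusted p = 0.170 and 0.198). The rise from GS was 0.62 without NO replicate 2 (adjusted p = 0.0189). *Trib3* (ENSMUSG00000032715, chr2:152337422-152344032), a pseudokinase that restrains ATF4, was at 990, 787 and 792 in GS, 984, 813 and 1101 in DM, and 999, 803 and 816 in NO. The media overlapped throughout, and the difference of NO from DM was -0.14, with a 95% interval of -0.50 to 0.21.

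*Hspa5* (ENSMUSG00000026864, chr2:34771970-34777547), the ER chaperone BiP, was at 12851, 12786 and 14899 in GS, 13753, 11529 and 11633 in DM, and 11395, 7145 and 10366 in NO. GS and DM overlapped and all NO values lay below both. The log2 fold change was -0.51 ± 0.18 against GS and -0.38 ± 0.18 against DM, and neither passed (limma, adjusted p = 0.0660 and 0.180). Against GS it passed without NO replicate 1 (-0.65, adjusted p = 0.0238) and was -0.31 without NO replicate 2 (adjusted p = 0.188).

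**Figure D2:**
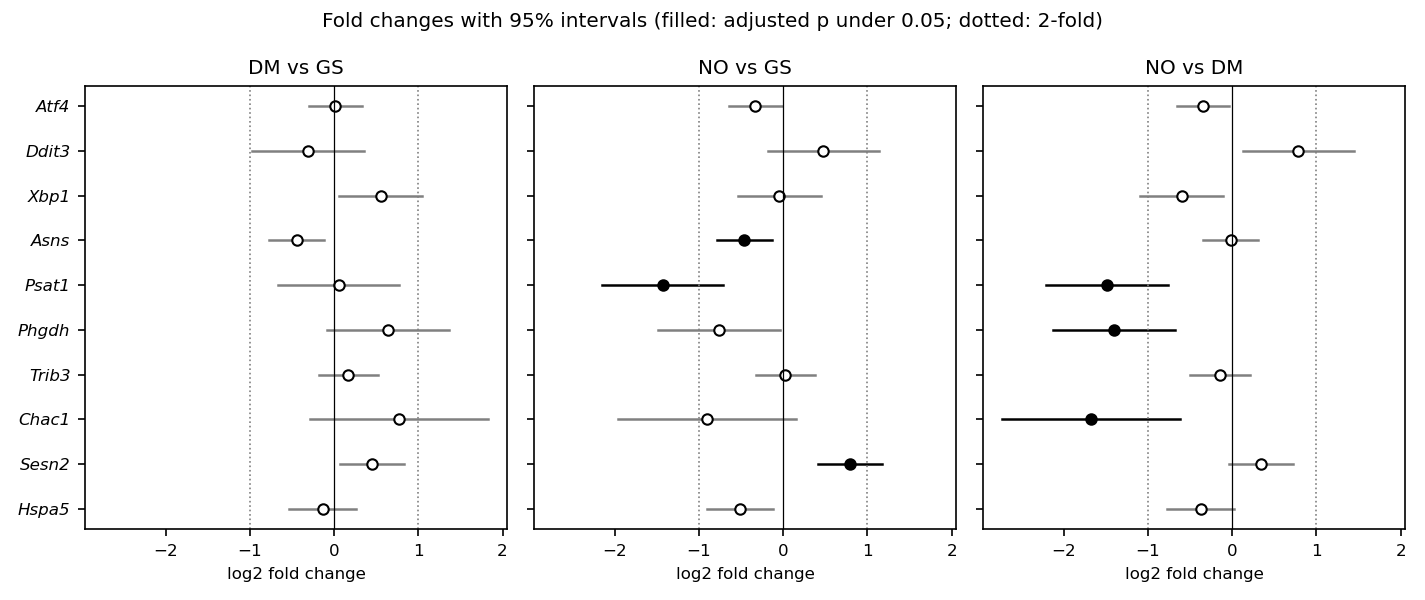
Log2 fold changes (horizontal axis) of the 10 genes in the 3 comparisons, as points with 95% intervals from limma, filled where the adjusted p was under 0.05 and with dotted lines at 2-fold. No point is filled for DM against GS, 3 are filled for NO against GS (*Asns*, *Psat1* and *Sesn2*) and 3 for NO against DM (*Psat1*, *Phgdh* and *Chac1*).

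Counted together, 0 of 10 genes were called between DM and GS, where 4.2% of all genes tested were called and 6.69% passed at any fold. At an unadjusted p under 0.05, 3 of the 10 differed between DM and GS, namely *Asns*, *Xbp1* and *Sesn2*, against 19.9% of all genes tested. The median log2 fold change of the 10 was 0.11, against -0.001 over all genes tested. Between NO and GS, 1 of 10 was called lower and 0 higher, with 1.64% of all genes called lower and 10.1% higher. At any fold 2 passed lower and 1 higher, with 6.64% and 13.4% of all genes. Between NO and DM, 3 of 10 were called lower and 0 higher, with 1.77% of all genes called lower and 6.78% higher, and 5.24% and 9.01% at any fold. The median of the 10 was -0.39 for NO against GS and -0.36 for NO against DM, with all genes at -0.016 and 0.001. These medians were -0.28 and -0.22 without NO replicate 2, when 0 and 2 genes were called. Without DM replicate 3, 0 genes were called between NO and DM. Without NO replicate 1, 3 were called between NO and GS and 4 between NO and DM, which include *Ddit3* as the 1 called higher. Comparisons with a medium in common share its samples and are not independent.

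Levels can be compared between genes only per length of exons. In GS, normalised counts per kb were 6875 ± 234 (SD, n = 3) for *Asns*, 3195 ± 284 for *Hspa5*, 2312 ± 205 for *Atf4* and 1493 ± 240 for *Psat1*. *Phgdh* followed at 751 ± 142 per kb, *Sesn2* at 432 ± 58.4, *Trib3* at 403 ± 54.5 and *Xbp1* at 331 ± 48.8, and *Ddit3* and *Chac1* came last at 143 ± 11 and 117 ± 35.2. Neighbours in this order that did not differ beyond 1 SD of each were *Sesn2* and *Trib3*, *Trib3* and *Xbp1*, and *Ddit3* and *Chac1*. In NO, *Sesn2* (756 ± 172 per kb) stood above *Psat1* (617 ± 356) and *Phgdh* (487 ± 274), which reversed the order in GS, although in NO the spreads overlapped.

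A further 90 genes of these pathways were grouped by role, of which 89 were tested. In NO against DM, 24 of the 89 passed lower and 1 higher at any fold (5.24% and 9.01% of all genes). Called were 7 lower and 1 higher (1.77% and 6.78% of all genes). In NO against GS, 24 passed lower and 5 higher (6.64% and 13.4% of all genes), with 5 and 4 called (1.64% and 10.1% of all genes). In DM against GS, 2 passed, both called higher, and 0 passed lower, with 6.69% of all genes passing and 4.2% called in either direction. The median over the 89 was -0.28, -0.30 and 0.04 in these comparisons. The number passing lower was 12 in NO against DM and 14 in NO against GS without NO replicate 2. In NO against DM it was also reduced without DM replicate 1 (6), DM replicate 2 (11), DM replicate 3 (8) or NO replicate 3 (7), and in NO against GS it was 10 without GS replicate 1, 13 without GS replicate 2, 10 without GS replicate 3 and 13 without NO replicate 3. Without NO replicate 1 it rose to 34 and 39.

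**Figure D3:**
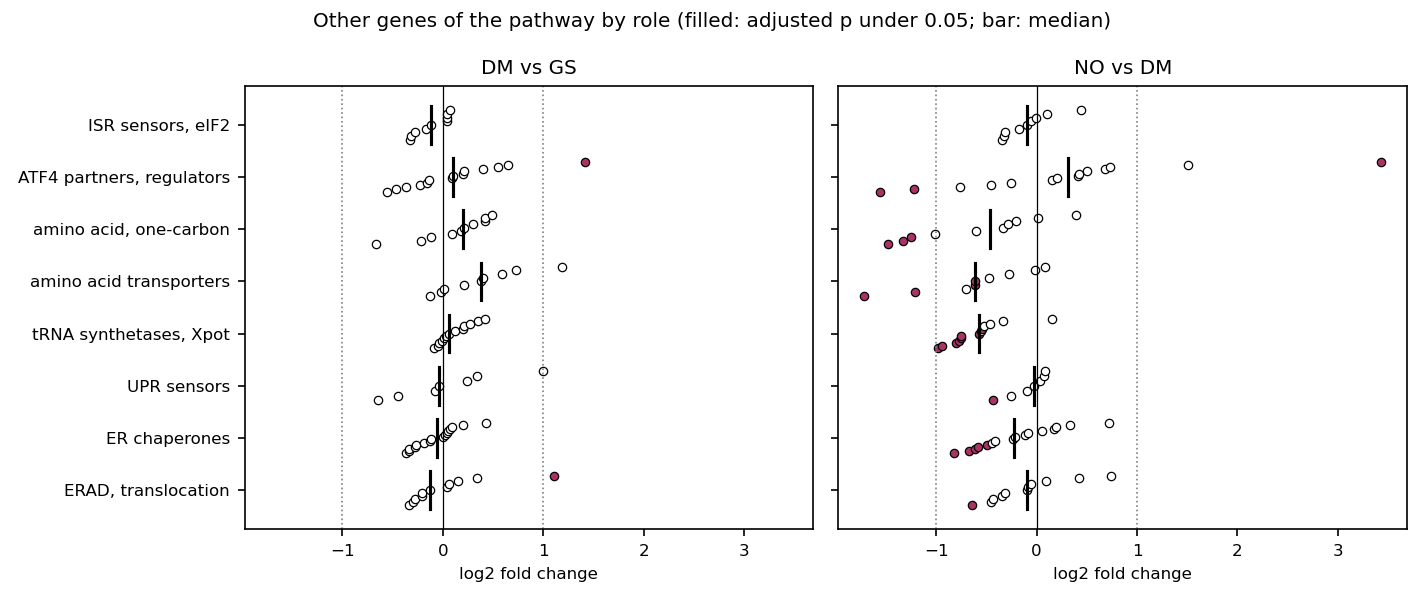
Log2 fold changes (horizontal axis) of the 89 other pathway genes by role (vertical axis) for DM against GS and NO against DM, filled where the adjusted p was under 0.05, with a bar at the median of each list and dotted lines at 2-fold. For NO against DM the points of the tRNA synthetases and amino acid transporters lie mostly below 0 (medians -0.58 and -0.61), and *Atf3* stands apart at 3.43.

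Aminoacyl-tRNA synthetases, which charge tRNA with amino acids, were grouped with the tRNA exporter *Xpot*. In NO, 8 of 13 fell below DM (5.24% of all genes), with none called, and 12 of 13 had a negative log2 fold change (median -0.58). The lowest were *Sars* (-0.98 ± 0.22, limma, adjusted p = 0.0164) and *Yars* (-0.94 ± 0.20, adjusted p = 0.0133), followed by *Lars* (-0.80), *Tars* (-0.77), *Mars* (-0.76) and *Nars* (-0.75). Against GS, 6 of 13 fell (6.64% of all genes), with a median of -0.54. In single samples the median difference of the list from the GS mean was -0.21, -0.86 and -0.56 in NO, against -0.005 to 0.12 in DM. Without NO replicate 2, 6 of 13 passed against DM and 3 against GS. Against DM, 2 passed without DM replicate 1 or NO replicate 3 and 4 without DM replicate 2 or 3. Against GS, 1 passed without GS replicate 3, 2 without GS replicate 1 or NO replicate 3, 3 without GS replicate 2 and 11 without NO replicate 1. CARE matched in 5 of the 9 genes of this list with a promoter, against 3.97% of all promoters. In *Tars* and *Iars* it was in the same letters as in *Chac1*, and in *Yars* it read on the strand of the gene, as in *Asns*.
Tars: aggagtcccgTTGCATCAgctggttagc
Iars: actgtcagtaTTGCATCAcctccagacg
Yars: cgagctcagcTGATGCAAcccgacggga
These windows are at chr15:11399656-11399683 (minus strand), chr13:49682127-49682154 (plus strand) and chr4:129189896-129189923 (plus strand), and are shown because all 3 of these genes fell in NO. *Tars*, *Iars* and *Yars* passed the F test of limma over the 3 media (adjusted p = 0.0182, 0.0160 and 0.0167). CARE also matched in *Aars* and *Gars*, lowest on average in NO, which did not pass that F test (adjusted p = 0.0517 and 0.0777). All NO values of *Aars* and of *Gars* nevertheless lay below all their DM values. No match was recorded for *Sars*, *Lars*, *Mars* or *Nars*, but only 9 of the 13 genes of the list had a promoter to search. For a gene without one, the lack of a match holds no information. In other lists CARE matched, among others, in *Slc1a4*, *Pycr1* and *Herpud1*, which fell from DM and passed the F test of limma (adjusted p = 0.0251, 0.0321 and 0.0361). It also matched in *Slc7a11* and *Pck2*, which did not pass the F test (adjusted p = 0.962 and 0.734). A link of CARE to these changes was not tested. *Mars* overlaps *Ddit3*, and *Yars* overlaps *C77080*, on the opposite strand.

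Of the enzymes of amino acid synthesis and one-carbon metabolism, 3 of 10 fell from DM to NO and all 3 were called. Of all genes tested, 5.24% passed lower and 1.77% were called lower. *Shmt2*, the mitochondrial enzyme that passes the carbon of serine to folate, was at 4344, 4337 and 3626 in GS, 5621, 5340 and 6239 in DM, and 3055, 1682 and 2301 in NO. The media did not overlap, with a log2 fold change from DM of -1.33 ± 0.19 (limma, adjusted p = 0.00288). It passed in all 21 alternatives. Its exons overlap *Ndufa4l2* on the opposite strand. *Aldh18a1* and *Pycr1*, of proline synthesis, fell by 1.25 and 1.48 on the log2 scale (adjusted p = 0.0298 and 0.0249). Of the amino acid transporters, 4 of 9 (5.24% of all genes) fell (*Slc7a1*, *Slc7a3*, *Slc1a4* and *Slc1a5*), with a median of -0.61. *Slc1a4*, a carrier of alanine, serine and cysteine, was at 479, 331 and 459 in GS, 619, 564 and 719 in DM, and 458, 227 and 192 in NO. The fall from DM (-1.21 ± 0.28, adjusted p = 0.0185) was lost without DM replicate 1 or 3 or NO replicate 2 or 3 (adjusted p up to 0.0661). When NO replicate 2 was left out, 2 of 10 enzymes and 1 of 9 transporters passed against DM. The enzymes also came to 1 of 10 without any 1 of the DM libraries or NO replicate 3, and the transporters to 0 without DM replicate 3 and 1 without DM replicate 1, DM replicate 2 or NO replicate 3. Without NO replicate 1, 6 of 10 enzymes passed lower.

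**Figure D4:**
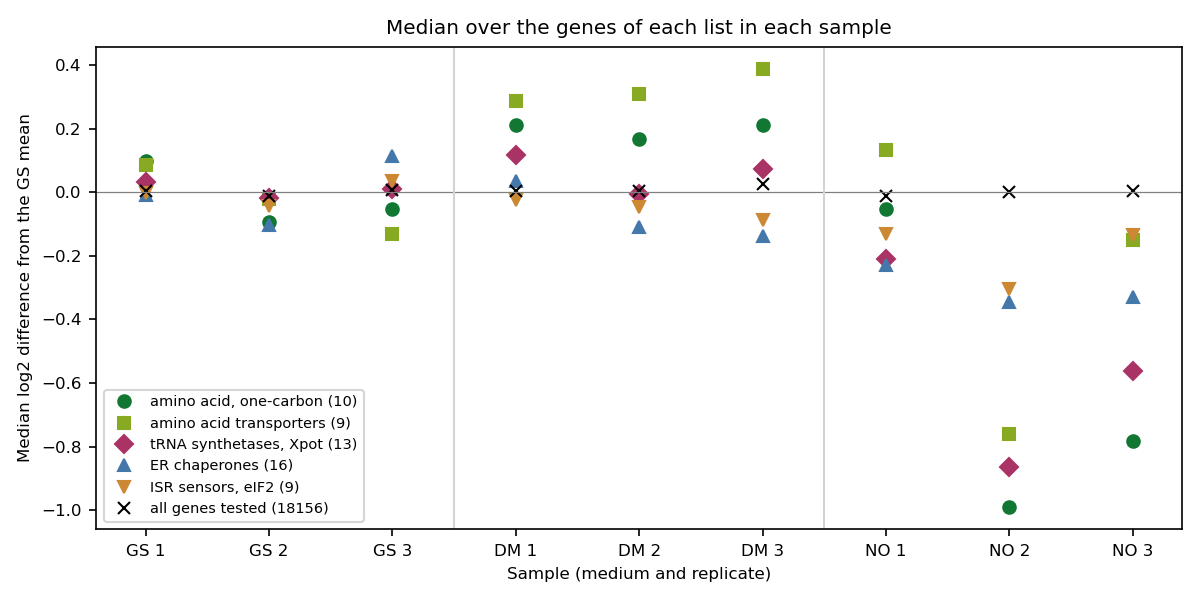
Median over the genes of each list of the log2 difference from the GS mean (vertical axis) in each of the 9 samples (horizontal axis), for 5 lists and for all 18156 genes tested. The tRNA synthetases are below all genes in all 3 NO samples (-0.21, -0.86 and -0.56), and the transporters are above 0 in NO replicate 1 (0.13) and below it in replicates 2 and 3 (-0.76 and -0.15).

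Genes listed here as partners of ATF4 or as regulators linked to it moved both ways. Whether ATF4 induces each of them was not tested. *Atf3*, a stress-induced factor, was at 35, 33 and 45 in GS, 25, 26 and 24 in DM, and 112, 912 and 213 in NO. All NO values lay above all others, and NO replicate 2 was far above the rest. It rose 10.8-fold from DM to NO (log2 fold change 3.43 ± 0.57, limma, adjusted p = 0.00466) and passed in every alternative, from 2.58 to 4.09. A CARE match stood in its promoter (window at chr1:191183426-191183453, minus strand) in the letters seen in *Chac1*. In this list the same letters also matched in *Nupr1* and *Vldlr*, which fell from GS to NO, unlike *Atf3*. They matched in *Fgf21* too, which had too low a mean to be tested. The window of *Atf3* is shown because *Atf3* and *Chac1* changed in opposite directions.
Atf3: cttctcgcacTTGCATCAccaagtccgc
*Gadd45a*, a gene of growth arrest, was at 69, 101 and 82 in GS, 259, 221 and 195 in DM, and 243, 449 and 246 in NO. It rose from GS to DM (1.42 ± 0.26, adjusted p = 0.00645) and to NO (1.84 ± 0.26, adjusted p = 0.00111), while NO and DM overlapped. *Txnip*, the inhibitor of thioredoxin, was at 2420, 1970 and 1977 in GS, 3370, 3126 and 3459 in DM, and 3632, 6317 and 4529 in NO, and rose from GS to NO (1.15 ± 0.19, adjusted p = 0.0019). Both overlap a gene on the opposite strand.

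Of the 14 genes tested in this list, 4 were called higher (*Atf3*, *Gadd45a*, *Txnip* and *Cebpb*) and 3 lower (*Stc2*, *Nupr1* and *Vldlr*) in NO against GS. Of all genes tested, 10.1% were called higher and 1.64% lower. *Cebpb*, a partner of ATF4 that overlaps *Tmem189* on the opposite strand, was at 12, 7 and 9 in GS, 5, 25 and 20 in DM, and 22, 68 and 46 in NO (2.06 ± 0.58 against GS, limma, adjusted p = 0.0279), and *Vldlr*, a lipoprotein receptor, differed from GS by -1.23 ± 0.30 (adjusted p = 0.0137). *Stc2*, a secreted glycoprotein, was at 337, 282 and 265 in GS, 379, 333 and 462 in DM, and 111, 170 and 119 in NO. It fell from DM (-1.56 ± 0.21, limma, adjusted p = 0.00216) and from GS (-1.16 ± 0.21, adjusted p = 0.00328), with no overlap of NO with either, and passed in all alternatives. *Nupr1*, a nuclear protein of stress, was at 443, 277 and 228 in GS, 189, 233 and 295 in DM, and 183, 68 and 80 in NO. It fell from GS (-1.59 ± 0.36, adjusted p = 0.0101) and from DM (-1.23 ± 0.36, adjusted p = 0.0422), the latter in 8 of 21 alternatives only. The fall from DM was lost without GS 2, GS 3, DM 1, DM 2, DM 3, NO 2 or NO 3 (adjusted p up to 0.139).

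Of the ER chaperones and folding enzymes, 6 of 16 fell from GS to NO (median -0.29) and 5 of 16 from DM to NO (median -0.23), and none rose. Of all genes tested, 6.64% and 5.24% passed lower. *Ero1l*, the oxidase that drives disulfide formation in the ER, was at 1552, 1552 and 2012 in GS, 1471, 1508 and 1223 in DM, and 854, 865 and 664 in NO. It fell 2.14-fold from GS (-1.10 ± 0.16, limma, adjusted p = 0.00126) and passed in every alternative. *P4hb*, *Manf*, *Hyou1* and *Pdia6* passed lower against both media by less than 2-fold, and *Hsp90b1* passed against GS. *Manf*, *Pdia6* and *Hsp90b1* overlap other genes. ERSE matched in 7 of 14 promoters of this list. Of these genes *Hsp90b1* and *Pdia6* passed lower in NO against GS, while *Calr* (-0.35), *Canx* (-0.10), *Creld2* (-0.17), *Dnajc3* (0.12) and *Ero1lb* (0.32) did not pass. Without NO replicate 2, 4 of 16 passed against GS and 2 against DM, with 1 against DM without DM replicate 1, 2 without DM replicate 3 or NO replicate 3, and 3 without DM replicate 2. Against GS, 3 passed without GS replicate 1 or 3.

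Few genes of the other lists passed the test. Of all genes tested, 5.24% passed lower for NO against DM and 6.64% for NO against GS. Of 9 genes for the eIF2α kinases, eIF2α, its phosphatases, eIF2B and the GCN2 inhibitor *Impact*, 0 passed between NO and DM, and between NO and GS only *Eif2b5*, a subunit of the exchange factor eIF2B, passed, at -0.67. Of 7 UPR sensors and their factors, 1 passed lower against DM (*Mbtps1*, -0.44) and 2 against GS. Of 11 genes of ER-associated degradation and translocation, 1 passed lower against DM (*Herpud1*, -0.65) and 1 against GS (*Sec61b*, -0.68). In the same list *Derl3* was at 59, 77 and 48 in GS, 133, 123 and 138 in DM, and 107, 87 and 98 in NO, and rose from GS to DM (1.11 ± 0.23, limma, adjusted p = 0.0122). That rise was lost without GS replicate 3 (adjusted p = 0.0587) or DM replicate 1 (adjusted p = 0.0533).

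NO replicate 2 was the lowest of the 9 samples in 7 of the 10 genes (70.0%) and in 36 of the 89 others (40.4%), against 23.9% of all genes tested. It was the highest in *Ddit3* and *Sesn2*, and in 22.5% of the 89. In the same library the summed pluripotency markers were 46232, the lowest of all 9 samples. NO replicate 1 lay nearest to DM in *Psat1*, *Phgdh* and *Chac1*.

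Patterns most like those of *Asns* and *Hspa5* were taken from 12395 genes with a mean above 50, by Pearson's r over the same 9 samples, as a description. For *Asns* these were *Spic* (r = 0.988), *Slc25a30* (0.973) and *Tbc1d13* (0.966). *Spic*, a transcription factor of the ETS family, was at 462 to 695 in GS, 100 to 126 in DM and 49 to 163 in NO, a far steeper difference than that of *Asns*. For *Hspa5* they were *Tsn* (0.989), *Gmnn* (0.989) and *Isoc1* (0.988), and each had its lowest value in NO replicate 2.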

How the data were processed

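Total RNA-Seq was analysed in 9 samples, grouped by the medium named in the labels and matched to columns by title. Ribosomal RNA was depleted and libraries were run on the Ion Torrent Proton platform. The authors aligned reads to GRCm38 with STAR 2.4.0a and counted them per gene with featureCounts 1.4.5-p1, the versions as in the submitters' processing notes. Deposited per gene was a normalised score, that is, a count divided by a DESeq2 size factor and rounded by the authors, so no count model was fitted. Because of that unit limma 3.58.1 (R 4.3.3) was used on log2(value + 1), leaving out genes with a mean of 5 or less, in 1 fit of all 9 samples with a mean-variance trend. Tests were two-sided, and fold changes on this scale understate those of low genes. The procedure was tested on simulated data.

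The value of 1 read (0.7 to 1.323 normalised counts) was estimated from gaps among low values, and the total divided by it gave the depth. Precision was set mainly by 3 replicates. Positions and overlaps are from GENCODE M21. For the replicate block, deviations from the group means were correlated between samples of the same number. The values were 0.159, 0.167 and 0.296 for NO and DM, -0.232 to 0.022 for DM and GS, and -0.106 to 0.05 for NO and GS. Samples of different numbers were not compared, so it is not known whether the numbers pair the samples. With the block *Asns* no longer passed for NO against GS (adjusted p = 0.0562).

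The genes and lists were chosen with earlier results of these data known. Named were the 10 genes, the 3 called genes of smallest adjusted p per comparison and direction among the others, and the 3 genes most like *Asns* and *Hspa5*. Further genes were named after their values were seen.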

Additional observations from a re-analysis of the deposited data

How the results depend on the processing

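With 3 replicates per medium, the counts of genes called moved with single libraries. Called were 0, 1 and 3 of the 10 genes, 2, 9 and 8 of the 89 others and 763, 2127 and 1552 of all genes for DM against GS, NO against GS and NO against DM. With 1 library left out in turn, the 10 genes gave 0 to 3 for NO against GS, 0 to 4 for NO against DM and 1 to 7 in the F test. The others gave 1 to 3, 5 to 15 and 3 to 14, and all genes 510 to 958, 1398 to 2843 and 785 to 2523. The cause was not tested for any of these shifts.

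A fit of only the 6 samples compared called 1 of the 10 genes, 3 others and 912 genes in all for NO against DM. For DM against GS, *Xbp1* (0.55) and *Asns* (-0.44) passed in such a fit (limma, adjusted p = 0.0414 and 0.0460), neither at 2-fold. Both also passed with sample weights (0.67 and -0.43, adjusted p = 0.0044 and 0.0155). A minimum mean of 50 gave 505, 1206 and 936 genes, by fewer genes tested. Without a minimum fold change 1215, 3640 and 2587 genes passed, with 3 of the 10 and 29 others for NO against GS and 25 others for NO against DM. A minimum log2 fold change of 2 left 242, 926 and 660 genes, with 0, 2 and 1 others and 0 of the 10. Without the mean-variance trend, NO against DM had 0 of the 10 and 3 others, and the F test 1. Sample weights gave 2 of the 10 and 3271 genes for NO against GS, 13 others and 2887 genes for NO against DM, and 8 in the F test. Quantile normalisation left 1 other for DM against GS. It moved the median of all genes for NO against GS from -0.016 to -0.115, as scaling to equal totals moved it to 0.093, and lowered the share of calls that were higher from 86.0% to 67.5% for NO against GS and from 79.3% to 65.1% for NO against DM, and *Asns* was then at -0.22 against GS (adjusted p = 0.295), and at -0.35 with equal totals (adjusted p = 0.130).

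The replicate block gave 0, 1 and 3 of the 10 genes and 4 in the F test, and beyond *Asns* it changed no result of the test for the 10 between pairs of media. With only the 6 NO and DM samples, an alternative chosen after seeing the data, it gave 3 of the 10, 9 others and 1591 genes. Of 1159 alternative values for 19 named genes, 1049 kept direction and side of the threshold, 39 newly passed, 53 no longer passed and 18 changed sign, none of which passed in either fit. *Asns* for NO against DM became 0.154 with sample weights, 0.067 with equal totals and 0.14 with quantile normalisation, and ranged from -0.101 to 0.128 with 1 library left out. *Xbp1* for NO against GS became 0.138, 0.065 and 0.004 in these settings and ranged from -0.265 to 0.238. *Trib3* for NO against GS became -0.045 with sample weights and ranged from -0.073 to 0.137. For DM against GS, *Atf4* ranged from -0.051 to 0.096 and *Psat1* from -0.075 to 0.16 with 1 library left out.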
